A study of Mus musculus with 18 samples.

Results

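The transcriptomes of neonatal satellite cells were compared with those of embryonic myoblasts across all expressed mouse genes, in 6 of the 18 samples of the series. Of 47728 annotated genes, 17571 passed the low-count filter and were tested. The 3 Neo libraries were labelled as satellite cells at postnatal day 3, sorted from the hindlimb muscles of the strain Pax7-ZsGreen, in which Pax7 regulatory sequence drives a green reporter. The 3 Emb libraries were labelled as myoblasts at stage E10.5, sorted from embryos of the strain given as My5Cre Rosa26YFP, in which Cre activity switches on a yellow reporter and keeps it on in descendant cells. Neither group was treated, and both were described as freshly sorted cells whose total RNA was extracted with the same kit. The 3 Fet libraries, of the same reporter strain as Emb and taken at stage E14.5, serve as a description only. Age, reporter and dissected region all changed together between Neo and Emb, and their parts cannot be told apart. The sort gates and the number of animals behind each library are not given in the sources used here. The p-values therefore measure only a spread between libraries, which may be technical. That spread was estimated over all 15 bulk libraries of the series, which also include Fet and the groups labelled iPax3 and iPax7.

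Skeletal muscle of the trunk and limbs is built in waves. Embryonic myoblasts, which come from the Pax3-expressing dermomyotome of the somites, make the first fibres. Fetal myoblasts that depend on Pax7 make the later ones. From late fetal life Pax7-expressing cells settle under the fibres' basement membrane as satellite cells, the stem cells of postnatal growth and repair. Myf5 and Myod1 commit cells to the muscle lineage, and Myog drives their differentiation. Neonatal satellite cells still divide and add nuclei to growing fibres, and they live beside capillaries, fibroblasts and resident immune cells.

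The Neo libraries held 16917199, 6923705 and 3557117 counts, and the Emb libraries held 11804719, 18266914 and 14228051. Emb replicate 1 stood apart, with 17048 genes detected, against 12850 and 12944 in the other Emb libraries, and the gap remained when all were thinned to one depth (16184, 11184 and 11530 genes). At that depth Neo replicate 3 also stood apart, with 16357 genes, against 12980 and 13734 in the other Neo libraries. Neo replicate 2 also stood apart: fibrillar matrix transcripts summed to 57851 CPM (counts scaled to a TMM-adjusted library size of 1000000), against 144150 and 113550 in the other Neo libraries, and immune transcripts to 1699 CPM, against 703 and 447. The 4 Y-linked genes Ddx3y, Eif2s3y, Kdm5d and Uty were present in every Neo library and near 0 in every Emb library. Ddx3y was at 194, 359 and 114 CPM in Neo, against 0.309, 0.744 and 0.588 CPM in Emb. Xist, the X-inactivation RNA of female cells, stood at 673, 489 and 1305 CPM in Neo, against 2235, 2185 and 1856 CPM in Emb. The 4 Y-linked genes were higher in Neo, and Xist did not pass the test (adjusted p = 0.117). These 5 genes were chosen after their values were seen. Sex and age cannot be told apart here.

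The defining gene of satellite cells went against the Neo label. Pax7 was at 0.495, 4.08 and 5.12 CPM in Neo, against 20.5, 33.2 and 29.7 CPM in Emb. Every Neo library lay below every Emb library, but the difference missed the threshold (log2 fold change -3.17 ± 1.19, adjusted p = 0.0703). Markers of endothelium, fibroblasts and blood cells were high in the same Neo libraries: the summed endothelial list reached 4827, 4658 and 6229 CPM in Neo, against 107, 27.0 and 138 CPM in Emb. None of its 31 tested members was at 0 in any Neo library, whereas 2, 6 and 5 members were at 0 in the Emb libraries. The groups are therefore called the libraries labelled Neo and Emb, or Neo and Emb for short. In bulk RNA a larger share of a cell type and more RNA per cell of it cannot be told apart, and this holds for every list below.

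Fitted with edgeR's quasi-likelihood test and Benjamini-Hochberg adjustment over all tested genes, 3538 genes (20.1%) differed at an adjusted p under 0.05. Of the tested genes, 2057 (11.7%) were higher and 1481 (8.43%) were lower in Neo. The higher genes had the larger differences, with a median log2 fold change of 5.25, against -1.92 for the lower genes, when genes with no count in 1 group were set to the bound that 3 counts over that group allow. Of the higher genes 85.4% differed at least 4-fold, and of the lower genes 47.9%. Among the higher genes, 602 had no count in any Emb library, and among the lower genes 207 had none in any Neo library. Without Emb replicate 1 the higher count was 3163, and with the Neo and Emb libraries fitted alone 900 genes were higher and 596 lower. The split depended on scaling: with mitochondrially encoded genes left out, 1868 genes were higher and 1912 lower, and the median of all genes moved by -0.15 on the log2 scale.

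**Figure D1:**
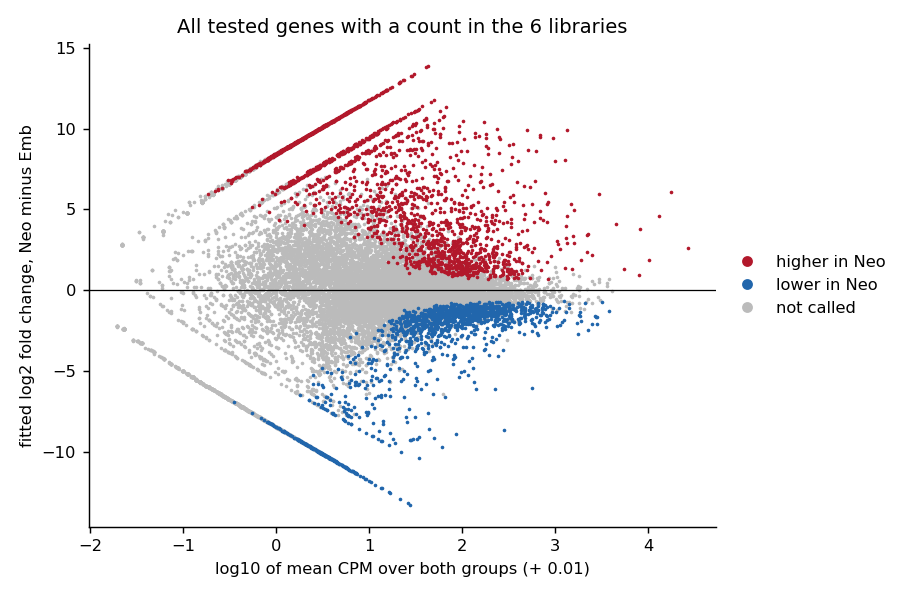
Fitted log2 fold change of Neo minus Emb (vertical) against the log10 mean CPM over both groups (horizontal), 1 point a gene that was tested and had a count in the 6 libraries. Red points are the 2057 genes called higher in Neo, blue points the 1481 called lower and grey points are not called; the outermost straight lines hold genes with no count in 1 group, whose fitted values are no measure of size.

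Genes past the threshold with separate groups and at least 20 CPM in the higher group were ranked by fitted log2 fold change. Predicted genes (Gm, Rik, AC, BC, AI and AU names), pseudogenes, unmatched gene IDs, Y-linked genes, Xist and Tsix were left out. The 15 highest fitted values all belonged to genes with no count in Emb. Fitted values of such genes are no measure of size, so their order is not one of size, and genes with a few counts in Emb can differ by as much. Clec3b, a fibroblast gene for a plasminogen-binding lectin, was at 144, 44.4 and 68.6 CPM in Neo and at 0 in each Emb library, at least 1574-fold higher against a floor of 3 counts over the group. The other 14 were Aoc3, Crip2, Arhgap30, Edn1, Stfa1, Gimap4, Samd9l, Ngp, Cxcl10, Cybb, Rgcc, H2-Eb1, Hcls1 and Ptk2b, most of them known from vessels or white blood cells. Downward, the 15 lowest fitted values, again no order of size, belonged to Mif, Kif26b, Lama1, Ncan, Bex4, Stra6, Ctnna2, Ina, Prdm12, Pou4f1, Pou3f3, Elavl4, Sim1, Cntn2 and Lmtk3, many of them neuronal. Ina, a neurofilament gene, lost its call without Neo replicate 1, Neo replicate 2 or Neo replicate 3 (adjusted p = 0.0671, 0.0613 and 0.0549). Kif26b, a kinesin known from embryonic kidney, was at 0 in each Neo library, against 50.1, 31.4 and 73.0 CPM in Emb, at least 391-fold lower. Mif was at 0 in each Neo library, against 95, 37.2 and 34.0 CPM in Emb, but it has many processed pseudogenes, and Gapdh, which has them too, was also low, at 7.07, 23 and 5.42 CPM in Neo, against 31.9, 14.4 and 26.2 CPM in Emb. How reads that map to several places were counted is not given in the sources used here, so such genes are uncertain.

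Some regulators of early myogenesis, Pax3 among them, were lower in Neo. Of 23 tested myogenic regulators, 7 were lower, 1 was higher and 15 did not pass, with a median log2 fold change of -1.90 (0.00 over all genes). Pax3, the regulator of dermomyotome and migrating limb muscle precursors, was at 0.424, 0 and 3.91 CPM in Neo, against 139.8, 64.1 and 82.8 CPM in Emb. The groups were far apart, and Pax3 was lower in Neo (log2 fold change -6.40 ± 0.92, adjusted p = 2.66e-04). Eya1, a cofactor of homeobox proteins upstream of Pax3, was at 10.7, 9.47 and 15 CPM in Neo, against 84.7, 133 and 98.2 CPM in Emb, and was lower in Neo (log2 fold change -3.17 ± 0.56, adjusted p = 0.00133). Sim1, a transcription factor of the ventral dermomyotome and of migrating muscle precursors, had a single count over the 3 Neo libraries, against 46.9, 17.0 and 34.6 CPM in Emb (adjusted p = 7.18e-04).

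The commitment factors were less clear. Myf5 was at 2.41, 0.816 and 6.32 CPM in Neo, against 21.4, 26.3 and 35.0 CPM in Emb. The groups did not overlap and Myf5 was lower in Neo (log2 fold change -3.20 ± 1.0, adjusted p = 0.0372, or -4.03 without Neo replicate 3), but the call ended without Neo replicate 1, Neo replicate 2, Emb replicate 2 or Emb replicate 3 (adjusted p = 0.0968, 0.107, 0.0608 and 0.0753). Myod1 was at 15.3, 12.4 and 4.81 CPM in Neo, against 5.64, 30.0 and 43.3 CPM in Emb. Myog was at 104, 212 and 86.7 CPM in Neo, against 108, 609.9 and 784 CPM in Emb. For both genes Emb replicate 1 lay within the range of Neo while the other Emb libraries lay above it, and neither passed the test (adjusted p = 0.540 and 0.259). Mef2d, a partner of Myod1 at muscle genes, was the regulator that was higher, at 60.6, 81.3 and 125 CPM in Neo, against 13.6, 20 and 25.2 CPM in Emb (log2 fold change 2.18 ± 0.36, adjusted p = 7.42e-04). The count of 7 lower regulators was 3 without Neo replicate 1 or Emb replicate 3, 4 without Neo replicate 3, 4 with the replicate block or limma-voom and 12 without the library labelled iPax7 replicate 1, which only helps to set the spread. Pax3 without Neo replicate 1, Neo replicate 2 and Neo replicate 3 had log2 fold changes of -5.81, -5.74 and -8.44.

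**Figure D2:**
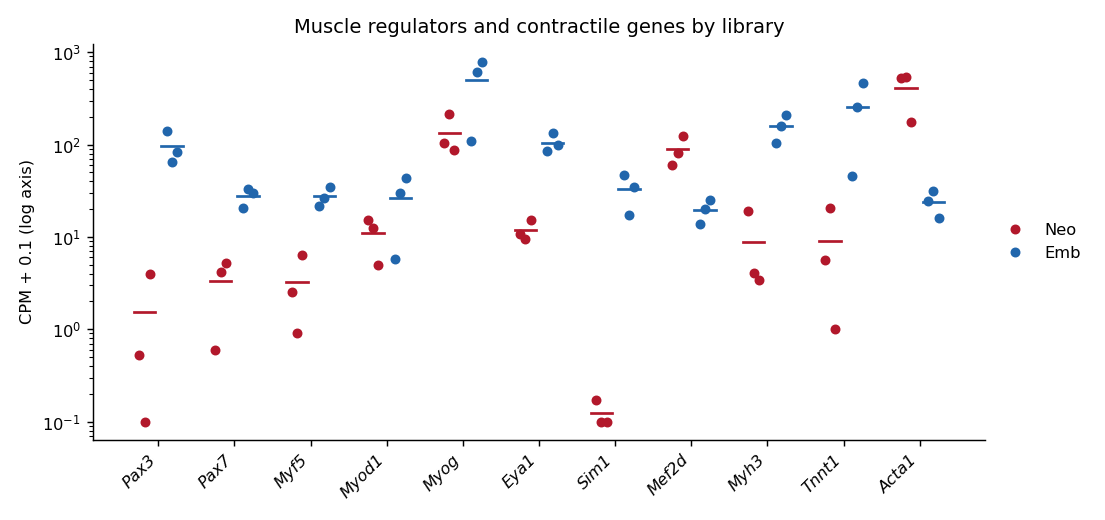
CPM + 0.1 on a log axis for 8 muscle regulators and 3 contractile genes, with 1 point a library, red for Neo and blue for Emb, and a bar at the group mean. Pax3, Pax7, Myf5, Eya1 and Sim1 have all Neo points below all Emb points, as do Myh3 and Tnnt1, Myod1 and Myog overlap, and Mef2d and Acta1 have all Neo points above.

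Most satellite cell markers did not pass the test, and most of those that passed were higher in Neo. Of 27 tested, 9 were higher, 1 was lower and 17 did not pass, with a median log2 fold change of 0.94. Several of the higher members are also known from other cell types. Cd34, also a marker of endothelium and fibroblasts, was at 243, 166 and 364 CPM in Neo, against 9.04, 0.915 and 0.221 CPM in Emb (log2 fold change 6.26 ± 0.96, adjusted p = 4.74e-04, or 8.77 without Emb replicate 1). Cav1, the caveolar protein of quiescent satellite cells and of endothelium, was at 1176, 1178 and 1743 CPM in Neo, against 3.01, 1.09 and 1.77 CPM in Emb (log2 fold change 9.46 ± 0.56, adjusted p = 3.3e-08). Sdc4, a heparan sulphate proteoglycan, averaged 236 ± 12.5 CPM in Neo and 28.3 ± 13.4 CPM in Emb (SD, n = 3 each, adjusted p = 2.85e-04 by edgeR). Vcam1, an adhesion molecule used to sort these cells, was at 110.2, 100 and 92.7 CPM in Neo, against 41.4, 103 and 144 CPM in Emb, overlapping between groups (adjusted p = 0.969). Calcr, the calcitonin receptor of quiescent satellite cells, was at 5.45, 0 and 0 CPM in Neo, against 0, 0.114 and 9.71 CPM in Emb, with at most 1 library above 1 CPM in each group. Itga7, the laminin receptor of muscle, was at 6.51, 26.9 and 46.3 CPM in Neo, against 0.155, 11.3 and 0.294 CPM in Emb, and passed the test when Emb replicate 2 was left out (adjusted p = 0.00181) but not with it (adjusted p = 0.116).

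Most contractile genes did not pass the test. Of 48 tested, 6 were higher and 8 were lower in Neo, with a median of 0.07, and the higher share was near the 11.7% of all tested genes. The 8 lower genes are to be read beside 8.43% lower over all tested genes. Myh3, the embryonic myosin heavy chain, was at 19.2, 3.92 and 3.31 CPM in Neo, against 103, 160.4 and 211 CPM in Emb. It was lower in Neo (log2 fold change -4.11 ± 1.28, adjusted p = 0.0385, or -5.45 without Neo replicate 1), but without Neo replicate 2, Neo replicate 3, Emb replicate 2 or Emb replicate 3 the adjusted p was 0.0985, 0.0960, 0.0641 or 0.0688. Tnnt1, slow skeletal troponin T, was at 5.52, 20.2 and 0.903 CPM in Neo, against 46.0, 254 and 458 CPM in Emb, and was lower (log2 fold change -4.81 ± 1.17, adjusted p = 0.0121), with -6.15 without Neo replicate 2 and -3.99 without Emb replicate 3. Acta1, adult skeletal actin, went the other way, at 531, 536 and 177 CPM in Neo, against 24.3, 31.3 and 15.7 CPM in Emb (log2 fold change 4.12 ± 0.96, adjusted p = 0.00879). The higher count was 3 without Neo replicate 2 or Emb replicate 2, 2 without Emb replicate 3 and 10 without Emb replicate 1. The lower count was 5 without Neo replicate 1 or Emb replicate 3, 4 without Neo replicate 2, 3 without Neo replicate 3 or Emb replicate 2 and 13 without iPax7 replicate 1 or with DESeq2. With limma-voom no contractile gene was lower, and with the 6 libraries fitted alone 1 was higher and 3 were lower. The summed contractile level overlapped between groups, at 2558, 2725 and 2049 CPM in Neo, against 1828, 3358 and 3356 CPM in Emb. In the dystrophin complex, 3 of 16 tested genes were higher and none was lower, beside 11.7% and 8.43% of all tested genes. Utrn, the autosomal relative of dystrophin, averaged 231 ± 40.8 CPM in Neo and 98.2 ± 5.77 CPM in Emb (SD, n = 3 each, adjusted p = 0.00650 by edgeR). Dmd itself stood at 91.0, 26.6 and 57.5 CPM in Neo, against 34.0, 56.6 and 31.3 CPM in Emb (adjusted p = 0.595). The other 2 were Dysf, the membrane repair protein dysferlin, and Sntb2, a syntrophin.

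Endothelial genes were higher in Neo almost throughout their list. Of 31 tested, 25 were higher and none was lower, with a median log2 fold change of 5.98. In 28 of the 31 all Neo libraries lay above all Emb libraries, which held for 15.3% of all tested genes. Pecam1, the adhesion molecule CD31, was at 813, 813 and 761 CPM in Neo, against 8.04, 0.572 and 0.956 CPM in Emb (log2 fold change 7.98 ± 1.71, adjusted p = 0.00617). Cdh5, the cadherin of endothelial junctions, was at 707, 357 and 839.5 CPM in Neo, against 3.01, 0.458 and 0.368 CPM in Emb (log2 fold change 8.97 ± 0.94, adjusted p = 1.69e-05). Every Neo library lay far above every Emb library for both genes, and Emb replicate 1 was the highest Emb library. Without it the log2 fold changes were 10.02 for Pecam1 and 10.55 for Cdh5. Kdr, the main receptor for VEGF, was at 243, 202 and 325 CPM in Neo, against 13.4, 6.41 and 0.441 CPM in Emb (adjusted p = 0.0238), and lost the call without Emb replicate 2 or Emb replicate 3 (adjusted p = 0.0662 and 0.0511).

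Genes known from muscle capillaries were among the higher ones. Of 16 tested capillary and lipid-transport genes, 11 were higher, with a median of 8.60. Fabp4, the fatty acid binding protein of capillary endothelium and fat cells, was at 3334, 2392 and 2342 CPM in Neo, against 2.01, 2.46 and 3.75 CPM in Emb (log2 fold change 9.94 ± 0.58, adjusted p = 3.3e-08). Cd36, the fatty acid translocase, was at 475, 373 and 574 CPM in Neo, against 12.1, 7.15 and 0.662 CPM in Emb (log2 fold change 6.16 ± 1.26, adjusted p = 0.00462, or 6.90 without Emb replicate 1). Aqp1, a water channel of continuous capillaries, averaged 513 ± 181 CPM in Neo and 0.797 ± 0.295 CPM in Emb (SD, n = 3 each, adjusted p = 2.26e-05 by edgeR). Arterial genes were higher in 8 of 13, among them the transcription factor Sox17 and the Notch ligand Dll4. Sox17 averaged 107 ± 18.6 CPM in Neo and 0.442 ± 0.556 CPM in Emb, and Dll4 averaged 54.4 ± 14.4 CPM in Neo and 0.968 ± 0.860 CPM in Emb (SD, n = 3 each, adjusted p = 0.00110 and 0.0118 by edgeR). Venous and lymphatic genes were higher in 6 of 15, including Vwf, Selp and Icam1, which mark activated or post-capillary endothelium, and Lyve1, which marks lymphatics. Of the VEGF and angiopoietin pathway, 10 of 16 were higher and 1 was lower. Among the higher genes 7 are receptors or coreceptors (Kdr, Flt1, Flt4, Tek, Tie1, Nrp1 and Aplnr, the apelin receptor), and the 1 lower gene is the ligand Vegfb. Of the 6 fits that left out 1 library, Flt1 lost its call in 5 and Flt4 in 4. Aplnr lost it without Neo replicate 3 (adjusted p = 0.0512), and Vegfb without Neo replicate 2 or Neo replicate 3 (adjusted p = 0.0716 and 0.0568). The ligand Vegfa was at 212, 186 and 183 CPM in Neo, against 98.7, 189 and 103 CPM in Emb (adjusted p = 0.400). Pericyte and smooth muscle genes were higher in 8 of 16. Rgs5, a pericyte regulator of G protein signalling, was at 441, 293 and 485 CPM in Neo, against 3.01, 7.44 and 37.2 CPM in Emb (log2 fold change 4.68 ± 0.93, adjusted p = 0.00335, or 6.33 without Emb replicate 3). The receptor Pdgfrb was at 96.8, 77.5 and 85.8 CPM in Neo, against 80.8, 34.8 and 53.4 CPM in Emb and did not pass (adjusted p = 0.536).

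Extracellular matrix genes took up a large share of the Neo libraries. The fibrillar matrix list summed to 144150.0, 57851 and 113550.0 CPM in Neo, against 6327, 6022 and 6412 CPM in Emb, and 22 of its 29 tested members were higher, with a median of 3.72. Col1a1, a chain of type I collagen, was at 49103, 15978 and 39034 CPM in Neo, against 451, 522 and 581 CPM in Emb (log2 fold change 6.07 ± 1.30, adjusted p = 0.00622). Its partner chain Col1a2 was at 35161, 10464 and 28913 CPM in Neo, against 826, 1076 and 1167 CPM in Emb (log2 fold change 4.6 ± 0.53, adjusted p = 3.56e-05). For both chains Neo replicate 2 was the lowest Neo library and still lay far above Emb. Eln, the elastin gene, differed from the collagens in this respect, at 2240.5, 2823 and 2568 CPM in Neo, against 11.5, 7.38 and 10.4 CPM in Emb (log2 fold change 8.03 ± 0.95, adjusted p = 7.02e-05), with Neo replicate 2 the highest. Col3a1, the type III collagen chain, averaged 15180.0 ± 7428 CPM in Neo and 1109 ± 230.1 CPM in Emb, and Postn, periostin, averaged 2903 ± 1266 CPM in Neo and 71.7 ± 43.3 CPM in Emb (SD, n = 3 each, adjusted p = 0.00259 and 1.21e-04 by edgeR). Sparc, a collagen-binding glycoprotein, averaged 8441 ± 1490.2 CPM in Neo and 497 ± 258 CPM in Emb (SD, n = 3 each, adjusted p = 1.24e-04 by edgeR).

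Small leucine-rich proteoglycans, which bind collagen fibrils, were higher in 10 of 11, with a median of 6.73. Aspn was at 1773, 827 and 1547 CPM in Neo, against 2.16, 1.54 and 1.62 CPM in Emb (log2 fold change 9.60 ± 0.63, adjusted p = 9.67e-08). Lum was at 589.5, 211 and 257 CPM in Neo, against 62.7, 69.6 and 103 CPM in Emb (log2 fold change 2.17 ± 0.35, adjusted p = 6.98e-04, or 1.56 without Neo replicate 1). Of 22 fibroblast genes, 14 were higher and none was lower, and they summed to 9973, 4494 and 6984 CPM in Neo, against 847, 1282 and 1557 CPM in Emb. Tnxb, a tenascin of connective tissue, averaged 362 ± 197 CPM in Neo and 0.446 ± 0.152 CPM in Emb, and Dpt, dermatopontin, averaged 200.1 ± 95.1 CPM in Neo and 0.852 ± 0.899 CPM in Emb (SD, n = 3 each, adjusted p = 7.96e-08 and 3.28e-05 by edgeR). Pdgfra, the receptor of mesenchymal progenitors, was abundant in both groups, at 254, 103 and 186 CPM in Neo, against 253, 356 and 300.3 CPM in Emb (adjusted p = 0.331). Tendon and cartilage genes were higher in 14 of 25. Thbs4, a tendon thrombospondin, averaged 1026 ± 433 CPM in Neo and 2.57 ± 2.80 CPM in Emb (SD, n = 3 each, adjusted p = 2.61e-05 by edgeR). Comp, a cartilage and tendon matrix protein, averaged 142 ± 44.5 CPM in Neo and 0.253 ± 0.0488 CPM in Emb (SD, n = 3 each, adjusted p = 3.35e-04 by edgeR). The chondrocyte regulator Sox9 was at 172, 164 and 132 CPM in Neo, against 161, 221 and 261 CPM in Emb (adjusted p = 0.620).

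Of 21 tested basement membrane genes, 12 were higher and 1 was lower. Lama1, the laminin chain of early embryonic basement membranes, was at 0 in every Neo library, against 101, 9.15 and 17.1 CPM in Emb, where Emb replicate 1 held most of it (adjusted p = 0.00529). Lama4, the chain of vessel walls, was at 371, 279 and 352 CPM in Neo, against 14.4, 43.4 and 44.1 CPM in Emb (log2 fold change 3.3 ± 0.50, adjusted p = 3.96e-04). Lama2, the chain of muscle fibre basement membrane, was at 86.3, 45.9 and 64.1 CPM in Neo, against 15.8, 0.400 and 9.56 CPM in Emb, above in every library but short of the threshold (adjusted p = 0.104). Col4a1, a chain of type IV collagen, averaged 4107 ± 952 CPM in Neo and 366 ± 193 CPM in Emb (SD, n = 3 each, adjusted p = 3.35e-04 by edgeR). Hspg2, the proteoglycan perlecan, averaged 1294 ± 525 CPM in Neo and 57.4 ± 12.6 CPM in Emb (SD, n = 3 each, adjusted p = 8.46e-07 by edgeR). Integrin subunits, the receptors for these proteins, were higher in 12 of 23 and lower in none. Itgb1, the common beta chain, was at 1887, 1604 and 2073 CPM in Neo, against 605, 608 and 914 CPM in Emb (log2 fold change 1.39 ± 0.30, adjusted p = 0.00522). Itga1, a collagen receptor chain, averaged 86.9 ± 18.8 CPM in Neo and 1.23 ± 1.88 CPM in Emb (SD, n = 3 each, adjusted p = 0.00531 by edgeR). The integrin count was 6 when the Neo and Emb libraries were fitted alone.

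**Figure D3:**
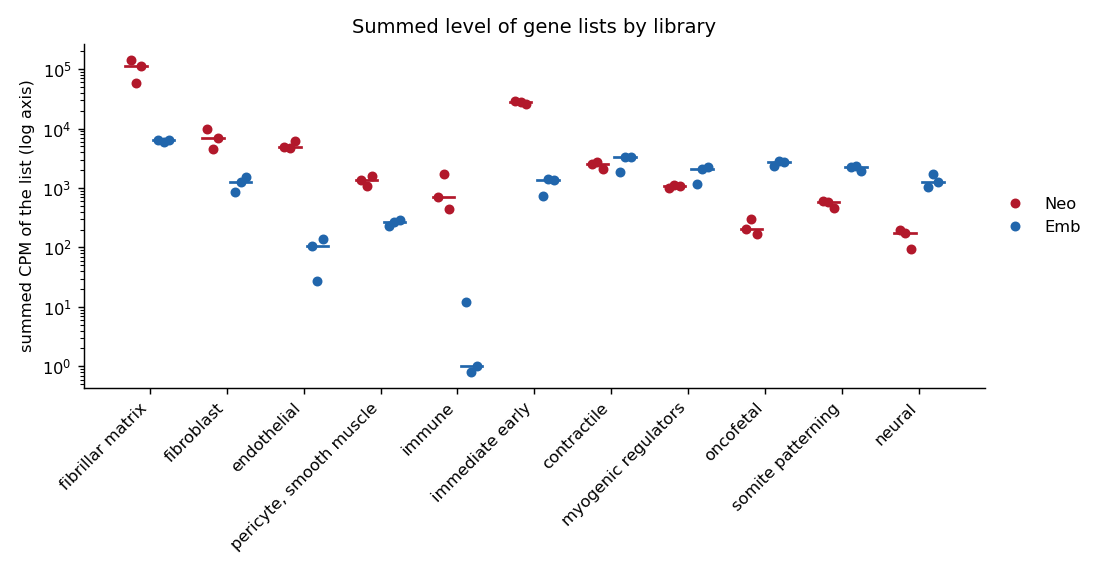
Summed CPM of the tested members of 11 gene lists on a log axis, with 1 point a library, red for Neo and blue for Emb, and a bar at the group median. The matrix, fibroblast, endothelial, pericyte, immune and immediate early sums lie above Emb in all 3 Neo libraries, the contractile sums overlap, the myogenic regulator sums lie just below, and the oncofetal, somite and neural sums lie below.

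White blood cell genes were higher in 24 of 28 tested, with a median of 9.28, or 8.51 with genes at 0 in Emb set to their bound. Their summed level was 703, 1699 and 447 CPM in Neo, against 12.0, 0.801 and 1.03 CPM in Emb, with 3, 3 and 0 members at 0 in Neo, against 14, 18 and 16 in Emb. Ptprc, the pan-leukocyte marker CD45, was at 56.9, 137 and 55.7 CPM in Neo and had 3 counts over the Emb libraries (adjusted p = 6.84e-05). S100a9, a neutrophil calgranulin, was at 71.9, 215 and 47.8 CPM in Neo, also with 3 counts over Emb (adjusted p = 0.00120). Neo replicate 2 was the highest library for both genes. Red cell and platelet genes were higher in 12 of 16, but their summed level overlapped between groups, at 285, 581 and 880.4 CPM in Neo, against 397, 536 and 450.3 CPM in Emb. Of the 16, 4, 2 and 1 were at 0 in the Neo libraries, against 11, 12 and 11 in Emb, so few members made up the Emb sums. The adult globin Hbb-bt was at 7.57, 17.8 and 47.8 CPM in Neo and 0 in each Emb library (adjusted p = 0.00213), although its sequence is close to that of Hbb-bs. The embryonic globin Hbb-y was at 0, 0 and 1.5 CPM in Neo, against 25.0, 0.114 and 0.221 CPM in Emb, where Emb replicate 1 held nearly all of it (adjusted p = 0.150). The count of that list was 6 with the stricter low-count filter and 5 when the Neo and Emb libraries were fitted alone.

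Every tested immediate early gene was higher in Neo. All 28 passed, with a median log2 fold change of 4.77, and the list summed to 29066, 28267 and 26159 CPM in Neo, against 746, 1423 and 1349.5 CPM in Emb. Fos, the AP-1 subunit that rises within minutes of stimulation, was at 6437, 6500.1 and 4632 CPM in Neo, against 28.9, 79.4 and 180.0 CPM in Emb (log2 fold change 5.93 ± 0.55, adjusted p = 3.87e-06, or 6.81 without Emb replicate 3). Junb, its partner, was at 583, 353 and 549.8 CPM in Neo, against 1.16, 0.458 and 0.515 CPM in Emb (log2 fold change 9.45 ± 0.56, adjusted p = 3.3e-08). Zfp36, which shortens the life of cytokine messages, was at 2039, 1591 and 2270.3 CPM in Neo, against 7.42, 10.7 and 5.22 CPM in Emb (log2 fold change 7.98 ± 0.44, adjusted p = 3.3e-08). Every Neo library lay far above every Emb library in all 3 genes. The Fet libraries lay between, at 1617, 1062 and 1051 CPM of Fos and 261, 115 and 150.0 CPM of Zfp36. Egr1, a zinc finger factor induced by growth factors, averaged 3099 ± 284 CPM in Neo and 98.0 ± 65.0 CPM in Emb, and Jun averaged 1556 ± 281 CPM in Neo and 81.7 ± 27.5 CPM in Emb (SD, n = 3 each, adjusted p = 1.99e-05 and 1.44e-05 by edgeR). Atf3, a stress factor, averaged 271 ± 64.3 CPM in Neo and 0.372 ± 0.0889 CPM in Emb, and Dusp1, a phosphatase that shuts off MAP kinases, averaged 903 ± 3.02 CPM in Neo and 10.4 ± 7.42 CPM in Emb (SD, n = 3 each, adjusted p = 1.12e-06 and 7.52e-06 by edgeR). The endothelial, fibroblast and immune sums given above were also higher in every Neo library than in every Emb library. Within Neo, each of these sums ranked the libraries in another order than the immediate early sum did. The part of those cells was not tested.

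The inducible heat shock genes belong to the same list. Hspa1b, an HSP70 chaperone, was at 1131, 1331 and 1271 CPM in Neo, against 6.57, 0.972 and 2.13 CPM in Emb (log2 fold change 8.60 ± 0.63, adjusted p = 3.45e-07, or 9.65 without Emb replicate 1). Hspa1a was at 656, 767 and 1577 CPM in Neo, against 0.773, 0.915 and 1.4 CPM in Emb, but the pair is nearly identical in sequence and the split of reads between them is uncertain. Chemokines and cytokines were higher in 17 of 22 tested, with a median of 8.74, or 7.55 with genes at 0 in Emb at their bound. Cxcl1, a neutrophil attractant, was at 1872, 1819 and 1916 CPM in Neo, against 1.93, 2.75 and 3.60 CPM in Emb (log2 fold change 9.40 ± 1.37, adjusted p = 5.17e-04). Cxcl2, its neighbour, was at 446, 731 and 223 CPM in Neo, against 0.155, 0.458 and 0.736 CPM in Emb (log2 fold change 10.00 ± 0.68, adjusted p = 1.45e-07). Cxcl10, an interferon-induced attractant of T cells, was at 62.7, 41.6 and 23.2 CPM in Neo and 0 in Emb, at least 758-fold higher. Il6 averaged 66.3 ± 18.2 CPM in Neo and 0.206 ± 0.148 CPM in Emb (SD, n = 3 each, adjusted p = 2.59e-04 by edgeR).

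Promoters of 4 of these genes are shown because the genes were higher together. Each runs 5′ to 3′ from 250 bases before to 50 after the RefSeq start (GRCm38.p6), and capitals mark the motif. The motifs were chosen after their matches were seen, both strands were searched, and a match is a description of letters only. For Cxcl1, Cxcl2 and Icam1, the endothelial adhesion receptor, which was at 361, 368 and 344 CPM in Neo, against 0.541, 0.343 and 0.662 CPM in Emb, capitals mark GGAATTTCC, a motif of the kappaB type. For Hspa1b they mark GAANNTTC, paired units of the heat shock element. No other searched motif overlapped a marked one.
Cxcl1 (chr5:90890995-90891294, plus strand): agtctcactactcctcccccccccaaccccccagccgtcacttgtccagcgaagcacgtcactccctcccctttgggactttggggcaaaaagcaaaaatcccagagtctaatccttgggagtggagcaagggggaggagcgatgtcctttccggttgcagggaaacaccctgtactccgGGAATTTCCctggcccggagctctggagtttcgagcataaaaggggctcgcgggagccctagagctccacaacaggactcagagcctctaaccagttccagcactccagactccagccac
Cxcl2 (chr5:90903649-90903948, plus strand): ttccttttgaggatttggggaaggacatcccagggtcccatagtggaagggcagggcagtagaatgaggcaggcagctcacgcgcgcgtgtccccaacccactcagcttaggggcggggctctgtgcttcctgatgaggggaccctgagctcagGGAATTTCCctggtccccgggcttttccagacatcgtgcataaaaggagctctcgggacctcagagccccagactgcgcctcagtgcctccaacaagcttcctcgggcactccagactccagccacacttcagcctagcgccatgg
Icam1 (chr9:21015690-21015989, plus strand): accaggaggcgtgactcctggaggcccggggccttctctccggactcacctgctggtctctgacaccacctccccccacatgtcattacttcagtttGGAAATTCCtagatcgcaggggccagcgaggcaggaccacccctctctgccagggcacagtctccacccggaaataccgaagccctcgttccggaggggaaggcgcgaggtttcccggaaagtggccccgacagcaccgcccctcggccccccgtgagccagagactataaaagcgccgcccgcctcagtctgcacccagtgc
Hspa1b (chr17:34959189-34959488, minus strand): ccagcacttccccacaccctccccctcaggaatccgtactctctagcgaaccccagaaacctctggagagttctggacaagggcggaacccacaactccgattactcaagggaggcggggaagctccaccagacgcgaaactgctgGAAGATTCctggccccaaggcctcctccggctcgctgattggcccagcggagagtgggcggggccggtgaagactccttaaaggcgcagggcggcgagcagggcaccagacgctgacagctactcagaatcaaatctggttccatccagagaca
GGAATTTCC occurred in 0.381% of 27025 genes with a RefSeq promoter, in 1.39% of 1435 genes higher in Neo, in 0.276% of 1087 lower and in 0.305% of 9183 tested genes not called. GAANNTTC occurred in 9.04% of all promoters, in 8.15% of those of higher genes, in 7.36% of those of lower genes and in 6.8% of those of tested genes not called.

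**Figure D4:**
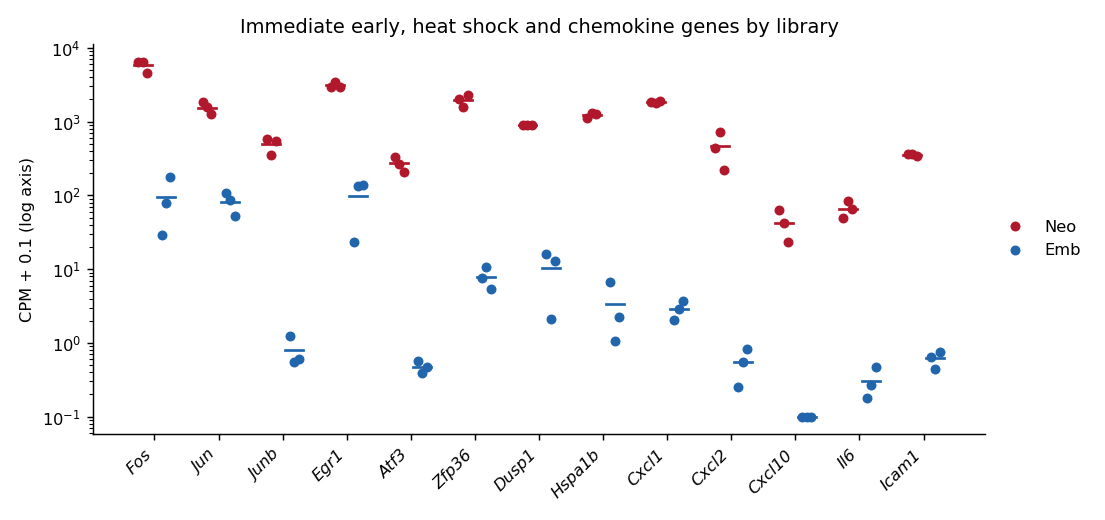
CPM + 0.1 on a log axis for immediate early, heat shock and chemokine genes and Icam1, with 1 point a library, red for Neo and blue for Emb, and a bar at the group mean. In all 13 genes every Neo point lies above every Emb point.

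Antigen presentation and interferon-stimulated genes were higher in 24 of 32 tested, with a median of 7.81, or 6.69 with genes at 0 in Emb at their bound. H2-K1, a class I heavy chain, was at 191, 212 and 169 CPM in Neo, against 1.24, 0.114 and 0.147 CPM in Emb (log2 fold change 8.60 ± 1.19, adjusted p = 1.64e-04, or 10.46 without Emb replicate 1), with the reservation that class I genes resemble each other in sequence. Tap2, a subunit of the peptide transporter, was at 31.8, 19.9 and 36.7 CPM in Neo and 0 in Emb, at least 431-fold higher. Fitted on the 6 Neo and Emb libraries alone, 15 members of the list passed. Glucocorticoid and clock genes were higher in 9 of 19. All Neo libraries lay above all Emb libraries in 15 of the 19 and below them in 1. The receptor Nr3c1 was at 354, 382 and 354 CPM in Neo, against 25.3, 88.2 and 88.9 CPM in Emb (log2 fold change 2.43 ± 0.45, adjusted p = 0.00185). The kinase Sgk1, one of its targets, averaged 460.2 ± 47.0 CPM in Neo and 15 ± 14.7 CPM in Emb, with an adjusted p of 0.00458 by edgeR (SD, n = 3 each). Another target, Tsc22d3, had every Neo library above every Emb library without passing, at 176, 135 and 242 CPM in Neo, against 56.9, 98.7 and 128 CPM in Emb (adjusted p = 0.191). The target Fkbp5 had every Neo library below every Emb library, at 50.9, 73.6 and 11.1 CPM in Neo, against 120.4, 106 and 194 CPM in Emb, without passing (adjusted p = 0.119).

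Of the 4 nuclear factor I genes, 3 were higher. Nfix, which drives the switch to fetal muscle gene expression, was at 249.8, 254 and 329 CPM in Neo, against 2.32, 3.83 and 33.7 CPM in Emb (log2 fold change 4.39 ± 0.94, adjusted p = 0.00547, or 6.54 without Emb replicate 3). Nfic was at 184, 103 and 224 CPM in Neo, against 11.3, 60.7 and 30.9 CPM in Emb (log2 fold change 2.31 ± 0.55, adjusted p = 0.00896, or 3.01 without Emb replicate 2). Nfib was called too, but lost the call in each of the 6 fits that left out 1 library. Nfia was at 152, 208 and 236 CPM in Neo, against 31.8, 163 and 198 CPM in Emb (adjusted p = 0.645), with Emb replicate 1 alone far below the rest. The fetal programme list to which they belong had 8 of 14 tested genes higher and none lower, or 5 without Neo replicate 3 or Fet replicate 1. Its higher members include Mcam and Col15a1, which are also vascular, and Col15a1 averaged 709 ± 201 CPM in Neo and 1.37 ± 1.36 CPM in Emb (SD, n = 3 each, adjusted p = 9.72e-05 by edgeR).

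Signalling genes were called in smaller numbers, to be read beside the 11.7% called higher and 8.43% called lower over all tested genes. Of 23 Notch genes, 5 were higher, or 8 with limma-voom, and none was lower. Jag1, a ligand, was at 257, 273 and 298 CPM in Neo, against 35.2, 22.2 and 79.5 CPM in Emb (log2 fold change 2.60 ± 0.63, adjusted p = 0.00995, or 3.3 without Emb replicate 3). Hes1, a target, was at 452, 286 and 286 CPM in Neo, against 46.5, 92.3 and 152 CPM in Emb (log2 fold change 1.82 ± 0.42, adjusted p = 0.00739). Of 33 TGF-beta and BMP genes, 8 were higher and 3 were lower, the lower share being near that of all tested genes. Tgfbr2, the type II receptor, averaged 276 ± 38.2 CPM in Neo and 37.5 ± 23.9 CPM in Emb (SD, n = 3 each, adjusted p = 0.00995 by edgeR). By contrast, its partner Tgfbr1 was at 277, 193 and 213 CPM in Neo, against 708, 1173 and 827 CPM in Emb, lower in every library (log2 fold change -1.99 ± 0.37, adjusted p = 0.00185). The receptor subunits thus differed in opposite directions. Wnt genes gave 1 higher and 2 lower of 28, the lower ones being the receptor Fzd7 and the secreted modulator Sfrp1. Both Wnt shares lay below those of all tested genes, but the median log2 fold change of the list was -1.17. All 3 Neo libraries lay below all 3 Emb libraries in 9 of 28 and above them in 3. Over all tested genes these shares were 13.2% and 15.3%. Sfrp1 was at 19.2, 2.77 and 19 CPM in Neo, against 143, 257 and 323 CPM in Emb (log2 fold change -4.15 ± 1.06, adjusted p = 0.0149). The higher one was Dkk3, a Dickkopf relative, whose call ended without Neo replicate 1, Emb replicate 1 or Emb replicate 3 (adjusted p = 0.0618, 0.0637 and 0.0734). Of 22 FGF genes, 6 were higher and 1 was lower, or 3 higher without Neo replicate 3 or with the Neo and Emb libraries alone. Spry1, a feedback inhibitor kept on in quiescent satellite cells, averaged 123 ± 27.7 CPM in Neo and 37.7 ± 17.6 CPM in Emb, and its relative Spry2 averaged 239 ± 75.3 CPM in Neo and 73.0 ± 27.4 CPM in Emb (SD, n = 3 each, adjusted p = 0.0135 and 0.00198 by edgeR). In retinoic acid signalling, where 4 of 18 were lower and 2 were higher, Crabp2, a retinoic acid binding protein, was at 22.1, 8.0 and 20.8 CPM in Neo, against 218, 144 and 198 CPM in Emb (log2 fold change -3.46 ± 0.48, adjusted p = 1.61e-04). Igf2, the fetal growth factor, was abundant in both, at 4416, 3246 and 3326 CPM in Neo, against 1159, 2811 and 2718 CPM in Emb (adjusted p = 0.510). The binding protein Igfbp7, an endothelial gene, averaged 300.3 ± 110.3 CPM in Neo and 0.410 ± 0.225 CPM in Emb (SD, n = 3 each, adjusted p = 1.12e-06 by edgeR).

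**Figure D5:**
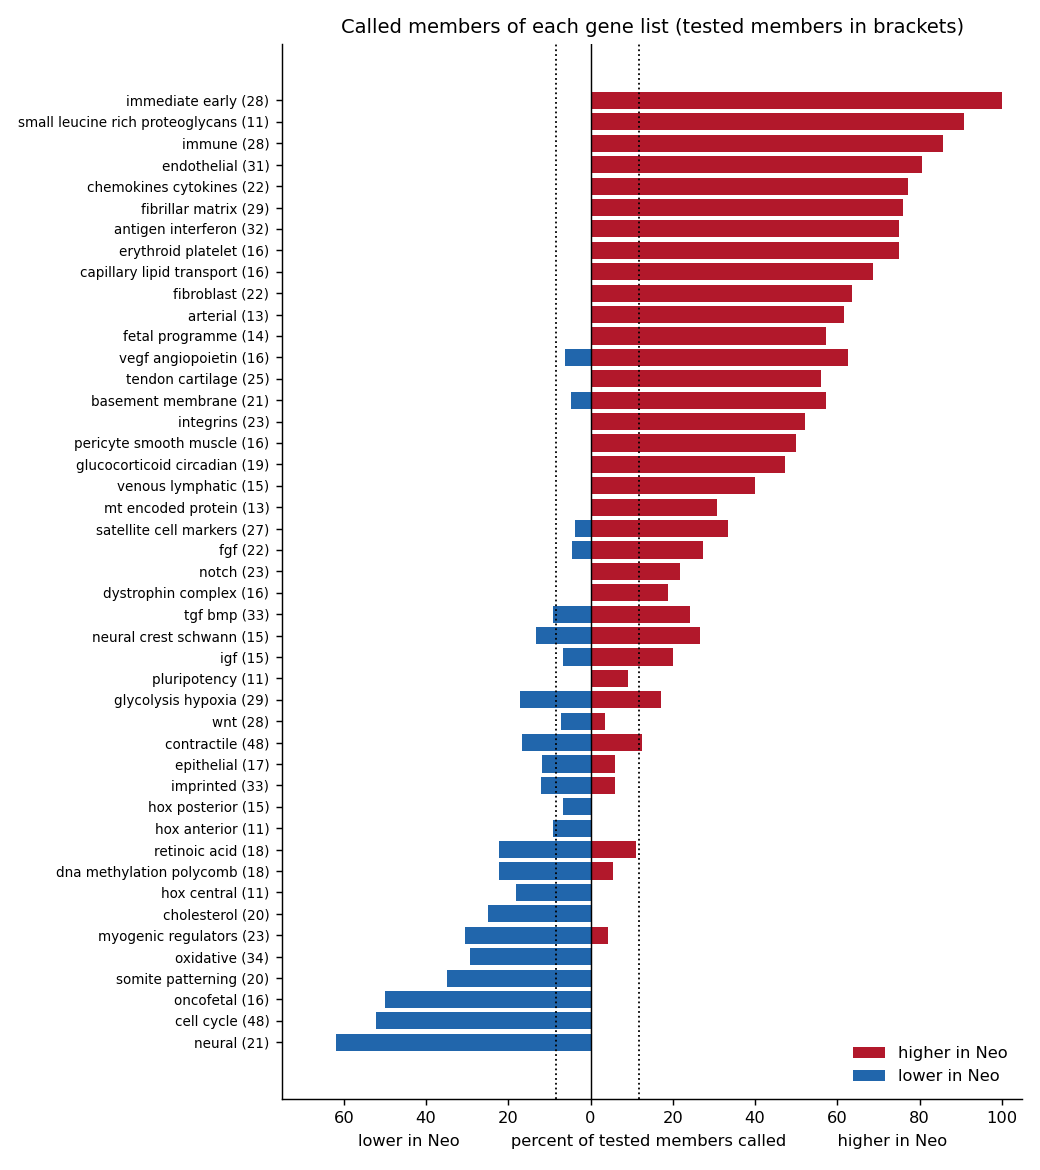
Percent of tested members called higher in Neo (red, to the right) and lower in Neo (blue, to the left) for each gene list with at least 10 tested members, whose number stands in brackets. Dotted lines mark the shares over all tested genes, 11.7% higher and 8.43% lower.

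Several genes of the embryonic growth programme were lower in Neo. Of 16 tested oncofetal genes, which are active in embryos and return in tumours, 8 were lower, 8 did not pass and none was higher, with a median of -2.89. Hmga2, a chromatin protein repressed by let-7 microRNAs, was at 20.5, 21.7 and 7.52 CPM in Neo, against 613, 1307 and 1396 CPM in Emb (log2 fold change -6.04 ± 0.63, adjusted p = 1.25e-05). Igf2bp1, an RNA-binding protein, was at 0.849, 7.83 and 3.61 CPM in Neo, against 289, 332 and 207 CPM in Emb (log2 fold change -6.11 ± 0.64, adjusted p = 1.42e-05, or -7.17 without Neo replicate 2). The groups were far apart in both genes. Trim71, another let-7 target, averaged 2.54 ± 1.96 CPM in Neo and 106 ± 54.4 CPM in Emb (SD, n = 3 each, adjusted p = 0.00435 by edgeR). Lin28b, the blocker of let-7 processing, was at 9.41, 7.51 and 0.301 CPM in Neo, against 89.1, 22.9 and 45.1 CPM in Emb, and just missed the threshold (adjusted p = 0.0538, or 0.0496 without Emb replicate 2).

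Somite patterning genes were lower in 7 of 20 and higher in none, with a median of -3.10, or -2.50 with genes at 0 in Neo at their bound. Zic1, a zinc finger factor of the dorsal somite and neural tube, was at 0.778, 1.47 and 2.41 CPM in Neo, against 406, 608 and 659 CPM in Emb (log2 fold change -8.63 ± 1.10, adjusted p = 1.27e-04). Pax9, a sclerotome factor, was at 0.212, 0.326 and 4.21 CPM in Neo, against 65.7, 111 and 61.3 CPM in Emb (log2 fold change -5.79 ± 1.17, adjusted p = 0.00330, or -8.23 without Neo replicate 3). The count fell to 3 without Neo replicate 1 and to 4 without Neo replicate 2, Neo replicate 3 or Emb replicate 2. Neural genes were lower in 13 of 21 and higher in none, or in 8 without Neo replicate 3. Their median was -6.08, or -4.79 with genes at 0 in Neo at their bound, and they summed to 194, 175 and 94.5 CPM in Neo, against 1020.2, 1729 and 1263 CPM in Emb. Pou4f1, a sensory neuron factor, had 1 count over the Neo libraries, against 68.2, 102 and 34.1 CPM in Emb (adjusted p = 6.98e-04). Tubb3, neuronal tubulin, was at 0.212, 0 and 0.602 CPM in Neo, against 55.3, 143 and 66.1 CPM in Emb (log2 fold change -8.56 ± 1.53, adjusted p = 0.00140, or -9.32 without Neo replicate 3). The neural sums were thus 94.5 to 194 CPM in Neo, against 1020.2 to 1729 CPM in Emb, whose label names myogenic cells, and the part of such cells in other lower genes was not tested.

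Hox genes, which give cells their position along the body axis, mostly did not pass the test. Of 37 tested, 4 were lower (Hoxd1, Hoxb8, Hoxc8 and Hoxb9) and none was higher, a share of lower genes near the 8.43% of all tested genes. Hoxb8 was at 1.06, 0.163 and 6.92 CPM in Neo, against 62.9, 90.9 and 92.3 CPM in Emb (log2 fold change -4.99 ± 1.4, adjusted p = 0.0217), with a log2 fold change of -6.96 without Neo replicate 3, and lost the call without Neo replicate 1 or Neo replicate 2 (adjusted p = 0.0660 and 0.0585). Hoxc8 was at 16.1, 33.1 and 8.12 CPM in Neo, against 120.0, 203 and 146 CPM in Emb, and Hoxc8, Hoxb9 and Hoxd1 each lost the call in 5 of the 6 fits that left out 1 library. The medians of the anterior, central and posterior genes were -2.0, -2.07 and -2.15. All 3 Neo libraries lay below all 3 Emb libraries in 6 of 11 anterior, 5 of 11 central and 6 of 15 posterior genes. Over all tested genes this held for 13.2%. Hoxd8 and Hoxc11 had every Neo library above every Emb library without passing. Hoxd8 was at 86.4, 62.5 and 68.9 CPM in Neo, against 14.3, 28.1 and 16.2 CPM in Emb (adjusted p = 0.0992). Hoxc11 was at 7.64, 4.90 and 4.51 CPM in Neo, against 1.0, 1.72 and 1.77 CPM in Emb (adjusted p = 0.343). The Neo cells came from hindlimb muscles and the Emb cells from embryos, so body position and age cannot be told apart.

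Cell cycle genes were lower in 25 of 48 and higher in none, with a median of -1.29, or in 15 without Neo replicate 3 and 14 with limma-voom. Top2a, the topoisomerase of dividing cells, was at 227, 219 and 148 CPM in Neo, against 815, 890.5 and 509.6 CPM in Emb (log2 fold change -1.90 ± 0.39, adjusted p = 0.00337). Ccnb1, the mitotic cyclin, was at 8.91, 18.3 and 13.5 CPM in Neo, against 68.9, 124 and 49.1 CPM in Emb (log2 fold change -2.58 ± 0.41, adjusted p = 5.92e-04). Ccne1, the cyclin of S phase entry, was at 6.23, 14.53 and 6.62 CPM in Neo, against 92.2, 48.7 and 49.1 CPM in Emb (log2 fold change -2.79 ± 0.38, adjusted p = 1.36e-04). None of these groups overlapped. Mki67, the antigen Ki-67, was at 269, 366 and 256 CPM in Neo, against 791, 397 and 739 CPM in Emb, lower in Neo (log2 fold change -1.11 ± 0.35, adjusted p = 0.0360) but not without Neo replicate 1, Neo replicate 3, Emb replicate 1 or Emb replicate 3 (adjusted p = 0.0953, 0.0999, 0.0818 and 0.108). Among the CDK inhibitors, Cdkn1a, p21, was at 114, 80.3 and 65.9 CPM in Neo, against 15.1, 65.2 and 67.1 CPM in Emb without passing the test (adjusted p = 0.277). Cdkn1c, p57, was at 154, 152 and 104 CPM in Neo, against 211, 341 and 326 CPM in Emb (adjusted p = 0.450).

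The Top2a promoter is shown because CCAAT boxes, marked in capitals on either strand, recur in promoters of this list. It held 6 of them and 1 GAANNTTC match that overlaps none.
Top2a (chr11:99024140-99024439, minus strand): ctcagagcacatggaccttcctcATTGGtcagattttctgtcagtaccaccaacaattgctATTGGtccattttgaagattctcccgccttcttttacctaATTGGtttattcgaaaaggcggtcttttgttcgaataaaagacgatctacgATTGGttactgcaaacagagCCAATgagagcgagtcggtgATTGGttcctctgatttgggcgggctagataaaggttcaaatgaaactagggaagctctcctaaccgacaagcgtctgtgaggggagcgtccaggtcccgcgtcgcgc
CCAAT occurred in 41.1% of all promoters, in 71.1% of 38 cell cycle promoters, in 46.9% of genes lower in Neo and in 38.2% of genes higher.

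The 10 most abundant genes in Emb among those lower in Neo included RNA-binding proteins, histone chaperones and a tubulin. The kinds of genes left out of the fold change ranking were left out here too. Hnrnpa1, a splicing regulator, was at 961, 1137 and 789.6 CPM in Neo, against 2884, 5376 and 3706 CPM in Emb (log2 fold change -2.05 ± 0.31, adjusted p = 3.38e-04). Npm1, the nucleolar protein of ribosome assembly, was at 1202, 1369 and 664 CPM in Neo, against 5112, 3581 and 4816 CPM in Emb (log2 fold change -2.06 ± 0.36, adjusted p = 0.00129). Nasp, a histone H1 chaperone, was at 734, 871 and 480.2 CPM in Neo, against 2996, 4532 and 3859 CPM in Emb (log2 fold change -2.45 ± 0.49, adjusted p = 0.00287). The groups did not overlap in any of the 3. Srsf1, Ncl, Nap1l1, Hnrnpa2b1, Tubb5 and Scd2, a fatty acid desaturase, were lower as well. Scd2 averaged 467 ± 80.6 CPM in Neo and 3029 ± 334 CPM in Emb (SD, n = 3 each, adjusted p = 3.97e-05 by edgeR). Hnrnph1, also among these 10, lost its call without Emb replicate 2 or Emb replicate 3 (adjusted p = 0.0566 and 0.0524). Of 18 DNA methylation and Polycomb genes, 4 were lower and 1 was higher, beside 8.43% lower and 11.7% higher over all tested genes. The lower count was 2 without Neo replicate 3, without Emb replicate 2 or with limma-voom. Ezh2, the Polycomb methyltransferase, was at 58.2, 80 and 60.8 CPM in Neo, against 326, 183 and 135 CPM in Emb (log2 fold change -1.70 ± 0.42, adjusted p = 0.0112). Cbx2, a Polycomb reader, averaged 7.38 ± 5.76 CPM in Neo and 78.1 ± 35.4 CPM in Emb (SD, n = 3 each, adjusted p = 0.00192 by edgeR).

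Nuclear genes of oxidative metabolism were lower in 10 of 34 and higher in none, although 2 passed when the 6 libraries were fitted alone and 5 with limma-voom. Uqcrc1, a complex III subunit, was at 50.6, 35.3 and 37.0 CPM in Neo, against 133, 125 and 116 CPM in Emb (log2 fold change -1.60 ± 0.27, adjusted p = 8.0e-04). Cycs, cytochrome c, was at 6.72, 35.9 and 64.7 CPM in Neo, against 166, 224 and 251 CPM in Emb (log2 fold change -2.59 ± 0.61, adjusted p = 0.00833, or -3.34 without Neo replicate 3). Of 13 protein genes of the mitochondrial genome, 4 were higher and none was lower, or 9 were higher with DESeq2. mt-Co1, a complex IV subunit, was at 35117, 63810.0 and 38076 CPM in Neo, against 6555, 7776 and 7856 CPM in Emb (log2 fold change 2.63 ± 0.26, adjusted p = 7.30e-06). mt-Cytb, the complex III cytochrome b, was at 11123, 20765 and 15648 CPM in Neo, against 4232, 3634 and 4940.5 CPM in Emb (log2 fold change 1.89 ± 0.36, adjusted p = 0.00213). The other 2, mt-Nd1 and mt-Nd5, lost their calls without Neo replicate 2 (adjusted p = 0.0556 and 0.133) or Emb replicate 2 (adjusted p = 0.0515 and 0.0867), and mt-Nd5 also without Neo replicate 1, Emb replicate 1 or Emb replicate 3 (adjusted p = 0.0800, 0.0814 and 0.0760). Of 29 glycolysis and hypoxia genes, 5 were higher and 5 were lower, beside 11.7% higher and 8.43% lower over all tested genes. The higher count was 2 without Neo replicate 1 or Emb replicate 3 and 3 without Neo replicate 3. The lower count was 2 without Neo replicate 3 or Emb replicate 3 and 3 without Emb replicate 2. Pgam1, phosphoglycerate mutase, averaged 123 ± 71.9 CPM in Neo and 808 ± 251 CPM in Emb (SD, n = 3 each, adjusted p = 0.00569 by edgeR). Cholesterol synthesis genes were lower in 5 of 20, or in 8 with mitochondrially encoded genes left out. Epas1, the hypoxia-inducible factor of endothelium, was at 443, 756 and 810.3 CPM in Neo, against 5.72, 0.572 and 2.87 CPM in Emb (log2 fold change 7.79 ± 1.07, adjusted p = 2.28e-04, or 8.62 without Emb replicate 1).

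Imprinted genes mostly did not pass: 2 of 33 were higher and 4 were lower, or none lower with limma-voom, with a median of 0.04. Over all tested genes 11.7% were higher and 8.43% were lower. Meg3, the maternal long RNA of the Dlk1-Dio3 locus, was at 2421, 1936 and 2096 CPM in Neo, against 768, 975 and 823 CPM in Emb (log2 fold change 1.33 ± 0.24, adjusted p = 0.00170). Nnat, neuronatin, was at 0.495, 7.51 and 12.6 CPM in Neo, against 542, 313 and 465 CPM in Emb (log2 fold change -6.07 ± 1.41, adjusted p = 0.00931), with -5.48 without Neo replicate 1 and -6.86 without Neo replicate 3. Peg10, a gene derived from a retrotransposon, was at 128, 226 and 175 CPM in Neo, against 1021, 911 and 1325 CPM in Emb (log2 fold change -2.62 ± 0.63, adjusted p = 0.0104). Gnas was the other higher gene, and Slc38a4 and Peg12 the other lower ones. Peg12 lost its call in 5 of the 6 fits that left out 1 library.

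The Fet libraries, which share the reporter strain of Emb, lay between the groups for most called genes. Their mean was between the means of Emb and Neo for 87.3% of the genes higher in Neo and for 90.5% of those lower, and it was at or beyond the Neo mean for 7.63% of the higher and 3.85% of the lower genes. Fet replicate 1 held only 516504 counts, and these shares are a description without a test. The genes were picked for a gap between Neo and Emb, so another group falls between more easily. No share over uncalled genes was computed. The 602 higher genes with no count in Emb, and the 207 lower genes with none in Neo, leave no room below the empty group. In order of age, Hmga2 averaged 1105 ± 429 CPM in Emb, 100.2 ± 21.2 CPM in Fet and 16.6 ± 7.87 CPM in Neo (SD, n = 3 each). Nfix averaged 13.3 ± 17.7 CPM in Emb, 158 ± 14.8 CPM in Fet and 278 ± 44.4 CPM in Neo. Pax7 did not follow it, with 27.8 ± 6.57 CPM in Emb, 43.8 ± 11.4 CPM in Fet and 3.23 ± 2.42 CPM in Neo, so its highest mean was in Fet.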

How the data were processed

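The deposited files were used as the authors made them: reads called with CASAVA 1.8 and aligned with HISAT2 2.0.2 to mm10, then counted per gene with featureCounts 1.4.6 of Subread, per the submitters' processing notes. The deposited values are whole counts of reads per Ensembl gene. The strand setting, annotation release and handling of reads with several matches are not given in the sources used here. Of 47728 gene IDs, 47309 matched a symbol in GENCODE M21 and 419 did not.

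The members and the gene lists were chosen with earlier results of these data known, so lists are described by counts and medians and not tested. Samples were grouped by their labels. All 15 bulk libraries were fitted together with edgeR 4.0.16 (robust quasi-likelihood F test, TMM scaling, default low-count filter, R 4.3.3) so that the 5 bulk groups shared the estimate of the spread, and Neo minus Emb was tested with Benjamini-Hochberg adjustment over 17571 genes at 0.05. CPM values are counts scaled to a TMM-adjusted library size of 1000000. The ± after a log2 fold change is its approximate standard error, the fold change over the square root of F, and that after a mean is the SD. Where a group had no count, the fold is a bound set by 3 counts over the group, which covers counting error only. Replicate libraries differed by more than sampling noise, with a chi-square per degree of freedom of 50.4 to 212.5. Deviations of libraries with the same number correlated at -0.0541, 0.00955 and -0.0695, so no pairing by number was seen over all genes. A pairing that touches few genes would not show in these values.

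The text names the 15 largest fitted log2 fold changes each way with separate groups and at least 20 CPM in the higher group, the 10 most abundant called genes each way, the muscle regulators, and members of each list by their place in it or smallest adjusted p. Predicted genes, pseudogenes, unmatched gene IDs, Y-linked genes, Xist and Tsix were left out of the rankings by fold change and abundance. Counts were then simulated for all 15 bulk libraries, with all groups at the same mean except for a few genes changed in Neo. Over 17167 genes, the calls took in 0 of 67 genes changed 2-fold, 5.97% of those changed 4-fold and 41.5% of those changed 16-fold. There were 2 false calls. The data held far more calls, which eases the adjusted threshold, so these shares do not carry over to the reported fit. The alternatives were other scalings, filters, thinned counts, DESeq2 1.42.0, limma 3.58.1, the replicate block and leaving out each library. Promoters came from RefSeq (GRCm38.p6) by symbol.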

Additional observations from a re-analysis of the deposited data

How the results depend on the processing

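Of the genes named in the text, 160 were called, and 123 kept the call under every alternative run and 141 in all 6 fits that left out 1 Neo or Emb library, while none turned direction. No gene was called in opposite directions by the reported test and any alternative. Fitting the 6 libraries alone, with fewer libraries behind the spread and 13335 genes tested, gave 1496 called genes, 900 higher and 596 lower. Testing against a 2-fold change gave 1695 called genes, 1251 higher and 444 lower (73.8% higher, against 58.1%). Leaving out 1 library gave 2585 to 4834 called genes, 1437 to 3163 higher and 1028 to 1671 lower, and the 3163 came without Emb replicate 1. With mitochondrially encoded genes left out, 49.4% of the calls were higher, and with limma-voom 69.3% were, where the median of all genes moved by 0.39 and the test differed too. No pairing by replicate number was seen over all genes, and the replicate block gave 2478 called genes, 1484 higher and 994 lower. Vcam1, not called, turned direction with mitochondrially encoded genes left out (-0.10), without Neo replicate 1 (-0.01) and without Emb replicate 1 (-0.30). Its values without 1 library ran to 0.54 without Emb replicate 3. Calcr, not called, was at 0.0581 with limma-voom, -9.20 without Neo replicate 1 and 4.86 without Emb replicate 3. Hbb-y, not called, was at -10.59 without Neo replicate 3 and 1.25 without Emb replicate 1. The cause was not tested. In the simulation, where few genes changed, 2-fold and 4-fold changes were rarely called, which does not carry over to the reported fit. In that fit 85.4% of the higher and 47.9% of the lower genes differed at least 4-fold, so smaller differences were called too.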
